A study of Mus musculus with 18 samples.

Results

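The 163 T cell receptor variable segments described here are all rows of the deposited tables whose symbol starts with Trbv (35 segments) or Trav (128 segments), out of 48440 gene identifiers. The Trbv segments lie on chromosome 6 between 40891228 and 41558452 and the Trav segments on chromosome 14 between 52427927 and 53977678, in the positions of the deposited FPKM table. All 163 were found in GENCODE vM21, a gene annotation of the mouse build GRCm38, with the same chromosome and end. GENCODE lists 22 of the Trbv segments as genes and 13 as pseudogenes, and 108 of the Trav segments as genes and 20 as pseudogenes. No count was found in any of 18 libraries for 3 of the Trbv pseudogenes, 14 of the Trav genes and 7 of the Trav pseudogenes. A count was present in every library for 18 Trbv and 6 Trav segments.

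RNA was sequenced from CD45+ immune cells of the livers of wild-type C57BL/6J mice (7 weeks old when bought) in which liver tumours were raised by injecting Ras and Myc oncogenes through the tail vein. The 18 libraries form 6 groups of 3: untreated tumour-bearing mice and mice given PolyIC and anti PD-L1, each with 3 sorted fractions, named CD3+CD8+, CD3+CD8- and, for cells negative for both, CD3-CD8-. PolyIC is a synthetic double-stranded RNA and anti PD-L1 an antibody that blocks a checkpoint ligand; the dosing notes give 4 mg/kg PolyIC and 200 µg antibody every other day for 6 doses. Those notes also name an antibody against VEGF-A at 5 mg/kg, which the treatment label of these libraries does not list. Tumours were present in all 6 groups, and no library came from a tumour-free mouse. The libraries were spread over 2 sequencing lanes, and both lanes held treated and untreated libraries. Replicates carry the numbers of their labels, 1, 5, 6 and 18 for untreated and 2, 11 and 19 for treated libraries. In the library names, untreated 6 carries the letters CV where the other untreated libraries carry C. Treated 19 carries PL where the other treated libraries carry P. The labels do not say what these letters mean, and the libraries were grouped by their treatment label. The labels do not say whether a number is an animal, nor whether animals were pooled, so p-values measure the spread between these libraries.

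Library totals ran from 1829155 to 28233682 counts. In 3 libraries (untreated CD3+CD8+ 1 and 18 and treated CD3+CD8- 2), 79.7% to 87.0% of all counts lay on 5 loci led by ribosomal RNA, against 0.348% to 2.26% in the other 15. The sort labels were checked against Cd8a, which encodes the CD8 alpha chain, and Cd3e, a CD3 subunit, as CPM (counts scaled to a common library size) after scaling of all 18 libraries. Cd8a was 282 to 970 CPM in untreated and 1089 to 1382 CPM in treated CD3+CD8+ libraries, and 7.71 to 23.6 CPM in treated CD3+CD8- libraries. In untreated CD3+CD8- cells it was 4.65 CPM in replicate 5, 6.82 CPM in replicate 18 and 641 CPM in replicate 6, which goes against that label. The CD3-CD8- libraries went against theirs in every case: Cd8a was 60.8 to 288 CPM untreated and 549 to 985 CPM treated, and Cd3e was 52.0 to 125 CPM untreated and 173 to 311 CPM treated.

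Each alpha-beta T cell joins 1 variable segment of the beta locus and 1 of the alpha locus to joining and constant segments when it matures in the thymus, and passes that choice to its daughter cells. A large and mixed T cell population therefore draws on many segments in a set order of preference, whereas a single expanded clone adds its own pair of segments. In mouse liver a sizeable share of T cells are invariant natural killer T cells, which recognise lipids on CD1d with an alpha chain built from Trav11 or its copy Trav11d, paired mostly with Trbv13-2, Trbv29 or Trbv1. Mucosal-associated invariant T cells use Trav1. Bulk counts give the share of a segment in the receptor RNA of a library and say neither which alpha met which beta chain nor how many clones a segment represents.

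The sequences decide how well a count can be assigned, and they are shown for the segments on which the results turn. All are the last 120 bases of the germline segment, from GENCODE vM21 on GRCm38, plus strand, and within a set capitals mark bases that differ from another member of that set. Many Trav segments exist as near copies, with a d or n in the name (73 of 128). An identical run of at least 100 bases is shared with another Trav segment by 97 of 128, and 78 of 128 share at least 150 bases. No Trbv segment (0 of 35) shares a run of 100 bases with another. Some pairs are identical over both whole transcripts, such as Trav9d-3 and Trav9n-3 (575 bases) or Trav12d-1 and Trav12n-1 (344 bases). How reads that match both members of a pair were counted is not stated, which limits Trav shares, leaders and effective numbers by counts. The invariant chain is a further case. The whole Trav11d transcript of 342 bases lies inside the 343 bases of Trav11, so the run of Trav11d at chr14:52824793-52824912 stands for both.
Trav11d: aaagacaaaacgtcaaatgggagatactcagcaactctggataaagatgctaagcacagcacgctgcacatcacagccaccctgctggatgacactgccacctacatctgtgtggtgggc

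The 3 members of the Trav16 family are shown because Trav16n or Trav16 led 6 libraries and all 3 passed a test below. They lie at chr14:53351502-53351621 (Trav16n), chr14:53743586-53743705 (Trav16) and chr14:53047702-53047821 (Trav16d-dv11). In this window Trav16n and Trav16d-dv11 differ at 1 base, and Trav16n and Trav16 at 3.
Trav16n: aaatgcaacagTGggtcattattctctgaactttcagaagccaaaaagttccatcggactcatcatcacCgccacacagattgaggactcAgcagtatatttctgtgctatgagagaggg
Trav16: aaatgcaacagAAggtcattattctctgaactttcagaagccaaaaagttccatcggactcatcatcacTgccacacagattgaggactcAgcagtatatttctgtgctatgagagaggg
Trav16d-dv11: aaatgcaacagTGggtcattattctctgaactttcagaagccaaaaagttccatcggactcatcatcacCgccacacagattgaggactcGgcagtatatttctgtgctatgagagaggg

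The Trav6 family holds the segments that took the highest Trav shares of 2 treated CD3+CD8- libraries, Trav6d-4 (chr14:52753727-52753846) and Trav6-2 (chr14:52667745-52667864). Trav6-4 (chr14:53454665-53454784) is shown as the near copy of Trav6d-4, from which it differs at 3 of 120 bases. Trav6d-4 and Trav6-2 differ at 11.
Trav6d-4: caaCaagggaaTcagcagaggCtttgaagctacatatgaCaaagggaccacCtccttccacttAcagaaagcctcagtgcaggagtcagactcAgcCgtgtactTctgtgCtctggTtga
Trav6-4: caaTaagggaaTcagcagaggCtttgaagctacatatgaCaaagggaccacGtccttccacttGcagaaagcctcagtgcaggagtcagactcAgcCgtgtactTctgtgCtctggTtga
Trav6-2: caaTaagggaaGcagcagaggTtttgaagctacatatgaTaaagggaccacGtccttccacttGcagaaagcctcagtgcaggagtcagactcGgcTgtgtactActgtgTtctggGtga

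For the beta chain the Trbv13 family shows the spacing between relatives: Trbv13-2 and Trbv13-3 differ at 11 of 120 bases and Trbv13-1 and Trbv13-3 at 22. These lie at chr6:41116349-41116468 (Trbv13-1), chr6:41121713-41121832 (Trbv13-2) and chr6:41130466-41130585 (Trbv13-3).
Trbv13-1: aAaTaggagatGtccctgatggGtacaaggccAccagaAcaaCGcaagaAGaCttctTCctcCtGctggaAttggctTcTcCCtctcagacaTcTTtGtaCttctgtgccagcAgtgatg
Trbv13-2: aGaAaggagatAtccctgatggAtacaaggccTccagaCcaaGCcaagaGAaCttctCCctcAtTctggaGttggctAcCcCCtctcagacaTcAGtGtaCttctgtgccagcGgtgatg
Trbv13-3: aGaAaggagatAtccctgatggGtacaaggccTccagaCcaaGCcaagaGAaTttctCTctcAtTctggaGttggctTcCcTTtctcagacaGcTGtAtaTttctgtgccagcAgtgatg

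Trbv1 (chr6:40891766-40891885), Trbv29 (chr6:41271762-41271881) and Trbv16 (chr6:41152111-41152230) are shown because each led at least 1 library and returns below. Their longest identical runs with any other Trbv segment were 13, 23 and 21 bases.
Trbv1: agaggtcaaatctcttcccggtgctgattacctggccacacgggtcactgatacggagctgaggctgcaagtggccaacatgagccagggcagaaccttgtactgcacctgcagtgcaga
Trbv29: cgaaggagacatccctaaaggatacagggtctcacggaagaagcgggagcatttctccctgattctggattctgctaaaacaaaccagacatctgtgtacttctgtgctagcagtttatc
Trbv16: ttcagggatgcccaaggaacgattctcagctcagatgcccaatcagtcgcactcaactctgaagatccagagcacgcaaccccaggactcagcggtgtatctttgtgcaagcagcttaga

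Shares were taken over all counts of a chain in a library, and the depth behind them differed widely. Trbv counts ran from 131 to 21324 per library with a median of 2595, and Trav counts from 20 to 4172 with a median of 718. Untreated CD3+CD8+ replicate 18 held 131 Trbv and 20 Trav counts, untreated CD3+CD8+ replicate 1 held 305 and 77, and untreated CD3-CD8- replicate 18 held 1104 and 147. These are the libraries under 200 counts of a chain, with untreated CD3+CD8- replicate 6 (202 Trav counts) just above. A segment without a count in untreated CD3+CD8+ replicate 18 could still hold up to 2.29% of its Trbv or 15% of its Trav counts, whereas the limit in treated CD3-CD8- replicate 2 was 0.0141% and 0.103%. These limits, and the exact Clopper-Pearson 95% intervals below, cover counting error only.

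Usage of the beta chain was spread over many segments in every library, and the order changed from library to library. The segments of highest mean share over the 18 libraries were Trbv16 (10.2%, range 3.94% to 35.9%), Trbv29 (9.78%, 2.25% to 26.5%), Trbv13-2 (9.64%, 2.78% to 36.2%), Trbv13-1 (8.28%, 1.98% to 26.4%) and Trbv3 (7.93%, 3.74% to 13.4%). Trbv13-2 led 4 libraries, and 11 different Trbv segments led at least 1. In Trav the highest means belonged to Trav16n (7.90%, range 0.464% to 34.7%), Trav8n-2 (5.42%, 0% to 31.6%), Trav12-2 (5.24%, 0.695% to 15.5%), Trav6d-4 (4.33%, 0% to 62.6%) and Trav16 (3.85%, 0.116% to 9.09%). Trav16n led 5 libraries, and 11 different Trav segments led at least 1. These leaders are by counts. By FPKM the leading segment was the same in 9 of the 18 libraries for Trbv and in 10 for Trav. Of the Trav segments Trav6d-4, Trav6-2 and Trav16n had the widest spread of share, and of the Trbv segments Trbv13-2, Trbv16 and Trbv13-1.

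**Figure D1:**
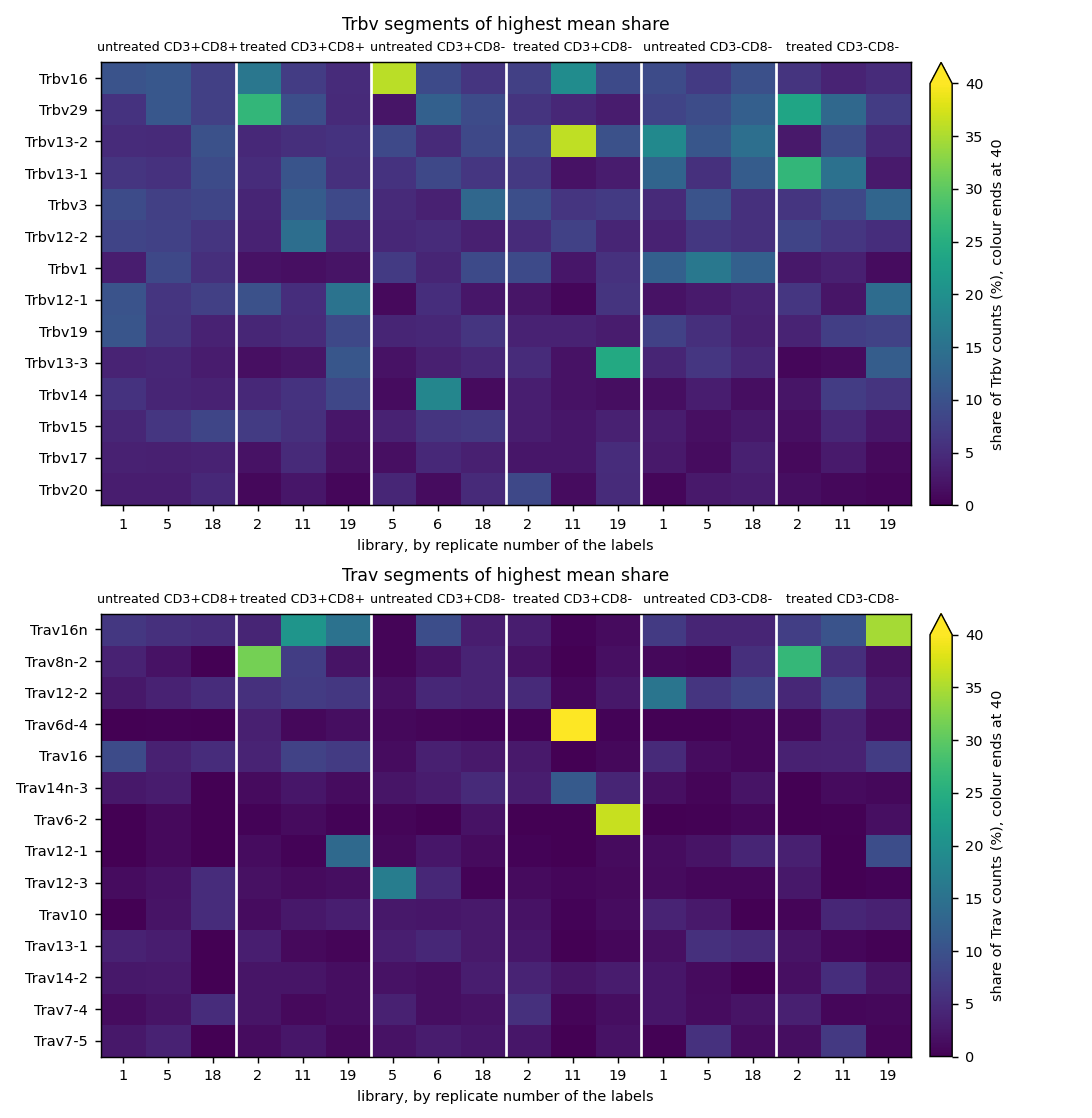
Share of all Trbv counts (upper panel) and all Trav counts (lower panel), in percent by colour, of the 14 segments of highest mean share in each of the 18 libraries, ordered by group and labelled by replicate number. Most cells are dark, and single bright cells mark libraries led by 1 segment, such as Trav6d-4 at 62.6% in treated CD3+CD8- replicate 11, which lies beyond the end of the colour scale.

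In CD3+CD8+ cells, the cytotoxic T cell fraction, 1 segment stood out more in treated than in untreated libraries. The leading Trbv segment held 10.5% in untreated replicate 1 (Trbv19, 95% interval 7.29% to 14.5%), 10.9% in replicate 5 (Trbv16, 10.04% to 11.7%) and 9.92% in replicate 18 (Trbv13-2, 5.39% to 16.4%). In treated mice it held 26.5% in replicate 2 (Trbv29, 25.4% to 27.7%), 14.4% in replicate 11 (Trbv12-2, 13.5% to 15.3%) and 15.2% in replicate 19 (Trbv12-1, 14.6% to 15.9%). The treated and untreated libraries did not overlap, and the segment in the lead by counts was a different one in each of the 6. By FPKM, Trbv29 led both untreated replicate 5 and treated replicate 2. The mean top share was 18.7 ± 6.79% (SD, n = 3) treated and 10.43 ± 0.475% (n = 3) untreated, and a two-sided exact permutation test gave p = 0.10. That is the smallest p that 3 against 3 libraries allow, and adjusted over 15 such tests it was 0.25. The top share by FPKM overlapped (exact permutation p = 0.20).

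The spread over segments was measured as the effective number of segments, the inverse of the probability that a pair of counts drawn from a library fall on the same segment. For Trbv in CD3+CD8+ cells the untreated libraries (replicates 1, 5 and 18) gave 15.2, 14.9 and 16.9, and the treated ones (2, 11 and 19) gave 8.03, 12.7 and 12.4. Again the groups did not overlap (11.03 ± 2.60 against 15.6 ± 1.07, exact permutation p = 0.10, adjusted 0.25). The difference kept its sign in both sequencing lanes: -4.52 in lane 2, with 2 treated libraries and 1 untreated, and -3.63 in lane 3, with 1 and 2. By FPKM, a unit per transcript length and depth, it was -5.06 (p = 0.10, exact permutation). Both untreated libraries rich in ribosomal counts are in this comparison; without them untreated replicate 5 remained, and the differences were 7.84 percentage points in top share and -3.83 in effective number.

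The alpha chain of CD3+CD8+ cells gave the same order with fewer counts. The top Trav share was 31.6% in treated replicate 2 (Trav8n-2), 20.8% in replicate 11 (Trav16n) and 15.1% in replicate 19 (Trav16n). Among untreated libraries it was 5.59% in replicate 5 (Trav16n, 1128 Trav counts). The untreated replicates 1 and 18 gave 9.09% and 10%, but on 77 and 20 counts, where a few counts make a leader and the interval of replicate 18 ran from 1.24% to 31.7%. The effective number of Trav segments was 8.54, 13.7 and 16.5 treated and 36.1, 41.3 and 95 in untreated replicates 1, 5 and 18, the last from 20 counts. Groups did not overlap in either measure (exact permutation p = 0.10, adjusted 0.25), while by FPKM p was 0.30 for both. With libraries of at least 200 counts only replicate 5 was left untreated, and the effective number differed by -28.3, against -44.5 with all 6.

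**Figure D2:**
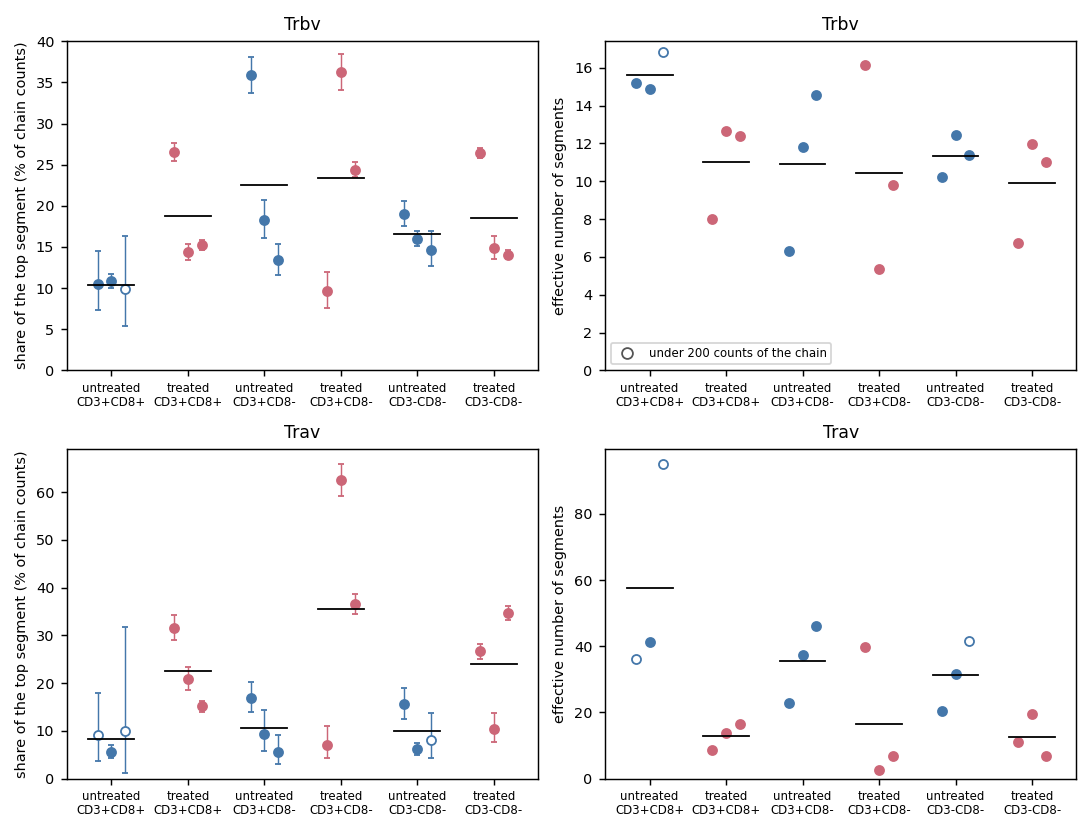
Top-segment share in percent (left, bars are exact 95% intervals) and effective number of segments (right) for Trbv (upper row) and Trav (lower row) in each library, blue untreated and red treated, with black lines at the group means; open circles mark libraries under 200 counts of the chain. In CD3+CD8+ cells the 3 treated libraries lie above the 3 untreated ones on the left and below them on the right, and in CD3+CD8- cells the groups overlap.

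CD3+CD8- cells, where helper and regulatory T cells are found, held the highest top shares of both chains. The top Trbv segment took 35.9% in untreated replicate 5 (Trbv16), 18.3% in replicate 6 (Trbv14) and 13.4% in replicate 18 (Trbv3). It took 9.61% in treated replicate 2 (Trbv3), 36.2% in replicate 11 (Trbv13-2) and 24.4% in replicate 19 (Trbv13-3). The groups overlapped throughout, with means of 23.4 ± 13.3% treated and 22.5 ± 11.8% untreated (n = 3 each, exact permutation p = 0.90). The effective number was 10.44 ± 5.40 against 10.9 ± 4.21 (p = 0.90, exact permutation). Both Trbv differences, treated minus untreated, changed sign between sequencing lanes. In top share the difference was 11.6 percentage points in lane 2 and -1.31 in lane 3, and in effective number -5.08 and 1.17. Trbv14 was 18.3% in replicate 6, the library in which Cd8a went against its label, and 1.28% and 1.18% in the other untreated CD3+CD8- libraries.

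For Trav, 2 treated CD3+CD8- libraries were each dominated by a Trav6 segment. Trav6d-4 made up 540 of 863 Trav counts in replicate 11 (62.6%, 95% interval 59.3% to 65.8%) and at most 3.63% in any other library of the series. Trav6-2 made up 766 of 2093 counts in replicate 19 (36.6%, 34.5% to 38.7%) and at most 1.97% elsewhere. FPKM gave the same leaders at lower shares, 50.8% and 21.8%. The third treated library, replicate 2, had no such segment; its leader was Trav10n with 18 of 255 counts (7.06%), and its effective number was 39.7, against 2.45 and 6.95 in replicates 11 and 19. The untreated libraries gave 23.0, 37.3 and 46.2, so that the groups overlapped (16.4 ± 20.3 against 35.5 ± 11.7, exact permutation p = 0.30). Trav12-3 led untreated replicate 5 with 97 of 573 counts (16.9%), the library in which Trbv16 also led.

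In CD3-CD8- libraries, where T cell transcripts should be scarce, untreated libraries were more alike in segment usage than treated libraries, a difference in degree that carries no test. Trbv13-2 or Trbv1 led the untreated libraries, with 19.03% in replicate 1, 16.0% in replicate 5 and 14.7% in replicate 18. By counts Trbv13-1 led treated replicates 2 (26.4%) and 11 (14.9%), and Trbv12-1 led replicate 19 (14.1%). By FPKM the treated leaders were Trbv29 in replicates 2 (29.2%) and 11 (15.9%) and Trbv4 in replicate 19 (25.0%). Top share and effective number of Trbv by counts overlapped (exact permutation p = 0.90 and 0.60). The treated minus untreated difference in top Trbv share was 3.82 percentage points in lane 2 and -1.94 in lane 3. In effective number it was -1.46 and -1.43. For Trav, Trav12-2 led all 3 untreated libraries by counts with 15.5%, 6.09% and 8.16%, the last on 147 counts. By FPKM Trav11d led them instead, with 14.5%, 6.73% and 17.9% of Trav FPKM. The treated leaders by counts were Trav8n-2 (26.6%), Trav6n-6 (10.43%) and Trav16n (34.7%), and FPKM gave the same segments. The effective number of Trav segments was 10.9, 19.5 and 6.81 treated and 20.5, 31.7 and 41.4 untreated, which did not overlap (12.4 ± 6.49 against 31.2 ± 10.5, exact permutation p = 0.10, adjusted 0.25). By FPKM the groups overlapped (18.5 against 23.8, exact permutation p = 0.60).

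Between CD3+CD8+ and CD3+CD8- libraries no measure passed a permutation test within treatments, where the smallest p is 0.005. The top Trbv share differed by -8.39 percentage points (14.6 ± 6.25% in CD3+CD8+ against 23.0 ± 11.3% in CD3+CD8- libraries, n = 6 each, exact permutation p = 0.145, adjusted over 5 tests 0.363). Without treated CD3+CD8- replicate 2, one of the ribosome-rich libraries, the difference was -11.8 points with an unadjusted exact permutation p of 0.035. The effective number of Trbv segments was 13.3 ± 3.09 against 10.7 ± 4.34 (exact permutation p = 0.265). Without treated CD3+CD8- replicate 2 its difference was 4.09 (unadjusted exact permutation p = 0.035). For both measures these were the largest differences reached by leaving out 1 library, picked after all were seen. The Trav11 pair, described below, differed by -0.827 points of Trav counts (exact permutation p = 0.08, adjusted 0.363). The unadjusted exact permutation p was 0.02 without untreated CD3+CD8- replicate 6 or without treated CD3+CD8- replicate 11. In these CD3+CD8- libraries the pair held 0 counts, so leaving out either could only widen the difference. Treated CD3+CD8- replicate 19 held 67 Trav11d counts, and the remaining CD3+CD8- libraries held 1 to 3 counts of the pair. The top Trav share was 15.4 ± 9.57% against 23.0 ± 22.5% (exact permutation p = 0.45).

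Some leading segments, but not all, were high in both the CD3+CD8+ and the CD3-CD8- library of a replicate number in treated mice. In replicate 2, Trbv29 made up 26.5% of Trbv counts in CD3+CD8+ and 23.5% in CD3-CD8- cells, and Trav8n-2 31.6% and 26.6% of Trav counts. In replicate 19, Trbv12-1 made up 15.2% and 14.1%, and Trav16n 15.1% and 34.7%. Which leaders were shared depended on the measure. By FPKM, Trbv29 led both libraries of replicate 2 (31.6% and 29.2%) and Trbv4 both of replicate 19 (17.4% and 25.0%). Trav8n-2 also led both of replicate 2 by FPKM, whereas Trav12-1 and Trav16n led those of replicate 19. By counts, other leaders were not shared. Trbv13-1 led CD3-CD8- replicate 2 with 26.4% and stood at 5.02% in its CD3+CD8+ library. In replicate 11 the leaders differed for both chains: Trbv12-2 was 14.4% in CD3+CD8+ and 6.27% in CD3-CD8- cells, where Trbv13-1 led, and Trav16n was 20.8% and 10.2%, just under Trav6n-6. In CD3+CD8- cells of the same numbers these segments stood at 5.97% (Trbv29) and 1.96% (Trav8n-2) in replicate 2, and at 5.99% (Trbv12-1) and 1.15% (Trav16n) in replicate 19. Of the leaders of the CD3+CD8- libraries, Trav6d-4, at 62.6% in replicate 11, was 0.864% in its CD3+CD8+ and 3.63% in its CD3-CD8- library. Trbv13-3, at 24.4% in CD3+CD8- replicate 19, was in contrast 10.8% and 11.8% in the CD3+CD8+ and CD3-CD8- libraries of that number, and Trbv13-2, at 36.2% in replicate 11, was 5.42% and 9.28%.

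Over all segments, the similarity of a pair of libraries was given by the Morisita overlap, which is 0 where no segment is shared, about 1 where segments are used in the same proportions, and corrected for depth, so that it can pass 1 at low counts. Between treated CD3+CD8+ and CD3-CD8- libraries of the same number it was 0.765, 0.887 and 0.962 for Trbv (replicates 2, 11 and 19) and 0.958, 0.804 and 0.787 for Trav. Between libraries of different numbers of the same groups the 6 values ran from 0.508 to 0.749 for Trbv and from 0.230 to 0.795 for Trav. For Trbv every same-number value lay above the others, and for Trav the value of replicate 19 did not. In untreated libraries no such order was seen for Trbv, with 0.728 to 0.932 within a number and 0.774 to 0.879 between numbers. Cd8a was 549 to 985 CPM in the treated CD3-CD8- libraries, and its part in this overlap was not tested. Whether libraries of a number come from the same animal is not stated.

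For Trbv, replicates of a group were less alike in treated than in untreated libraries of the CD3+CD8+ and CD3-CD8- fractions. Among untreated CD3+CD8+ libraries the Trbv overlap was 0.946 to 0.984, and among treated ones 0.582 to 0.726. Each of these untreated pairs includes replicate 1 or 18, with 305 and 131 Trbv counts. The treated CD3+CD8+ libraries held 5390 to 12921. Among CD3-CD8- libraries the Trbv overlap was 0.880 to 0.969 untreated and 0.489 to 0.835 treated. Among CD3+CD8- libraries the ranges were 0.513 to 0.694 and 0.520 to 0.713. For Trav the overlap among treated CD3+CD8- libraries was 0.0373 to 0.148, against 0.439 to 0.775 untreated. The measure weighs leading segments most, here Trav6d-4 in replicate 11 and Trav6-2 in replicate 19. Each of these treated libraries had counts for 58 to 83 Trav segments. The 3 overlap values per group share libraries and carry no test.

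**Figure D3:**
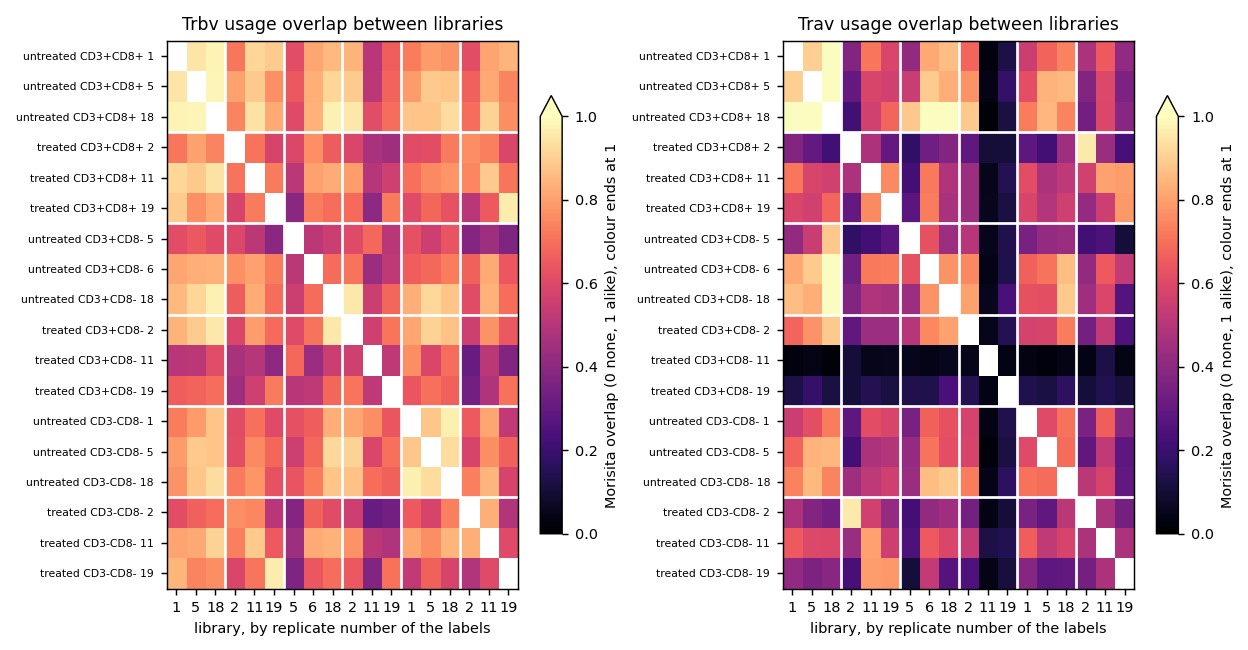
Morisita overlap of segment usage between each pair of the 18 libraries for Trbv (left) and Trav (right), with white lines between groups and the diagonal left blank. The Trav rows of treated CD3+CD8- replicates 11 and 19 are dark against nearly all libraries, and in the Trbv block that crosses treated CD3+CD8+ with treated CD3-CD8- libraries the diagonal, which holds pairs of the same replicate number, is brightest (0.765 to 0.962).

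Among the segments used by invariant natural killer T cells, Trbv1 and, by FPKM, the Trav11 pair had their highest shares in untreated CD3-CD8- libraries, and Trbv13-2 and Trbv29 did not. Trbv1 there held 12.3%, 16.0% and 12.3% of Trbv counts (replicates 1, 5 and 18), whereas the treated libraries (2, 11 and 19) had 2.60%, 3.57% and 1.38%. The lowest untreated share was more than 3 times the highest treated one. Trbv13-2 made up 19.03%, 10.6% and 14.7% untreated and 2.78%, 9.28% and 4.51% treated, again without overlap, but its highest share was the 36.2% of treated CD3+CD8- replicate 11. Trbv29, the third usual partner, did not follow: 8.23%, 9.26% and 12.1% untreated and 23.5%, 13.5% and 7.03% treated. In CD3+CD8+ cells Trbv1 was also lower in each treated library (1.60% to 2.06%) than in each untreated one (3.28% to 8.71%). In CD3+CD8- cells it overlapped, at 4.11% to 9.04% untreated and 2.39% to 8.96% treated.

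The alpha chain of these cells could be followed by FPKM but hardly by counts. In the count table Trav11 held at most 2 counts in any library, and Trav11d 18, 12 and 3 in untreated and 10, 0 and 4 in treated CD3-CD8- libraries. The highest Trav11d count of the series was 67, or 3.201% of Trav counts, in treated CD3+CD8- replicate 19. The FPKM table gave values for both copies, 45.6 and 52.4 FPKM in untreated CD3-CD8- replicate 1, but 12.5 and 25.9 FPKM in treated CD3+CD8- replicate 19, so the copies were summed. Trav11 and Trav11d together were 27.1%, 13.4% and 35.5% of all Trav FPKM in the untreated CD3-CD8- libraries, in the same order, and 6.32%, 1.98% and 3.70% in the treated ones. These did not overlap (25.3 ± 11.1% against 4.00 ± 2.19%, exact permutation p = 0.10). By counts the share was 2.12 ± 1.43% against 0.157 ± 0.196%, with the same p and an adjusted p of 0.25. In level the groups did overlap: the summed FPKM was 98.0, 35.6 and 37.7 untreated and 59.0, 8.81 and 25.1 treated, while all other Trav segments together stood at 68.5 to 264 FPKM untreated and 437 to 876 FPKM treated. The lower share thus went with more RNA of other Trav segments.

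In the other fractions the Trav11 pair was 0.166% to 4.33% of Trav FPKM in CD3+CD8+ libraries and 1.14% to 9.19% in CD3+CD8- libraries. Zbtb16, the transcription factor that marks invariant natural killer T cells and other innate-like T cells, was 0 to 0.517 CPM in treated CD3+CD8+ and 2.40 to 18.2 CPM in treated CD3+CD8- libraries. It was lower in the former (log2 difference -4.47 ± 0.951, edgeR's quasi-likelihood test, Benjamini-Hochberg adjusted p = 0.00867). In CD3-CD8- cells Zbtb16 was 4.26 to 9.96 CPM untreated and 2.41 to 5.55 CPM treated (log2 difference -0.74 ± 0.41, adjusted p = 0.22). Trav1, the segment of mucosal-associated invariant T cells, was at most 1.89% of Trav counts in any library.

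**Figure D4:**
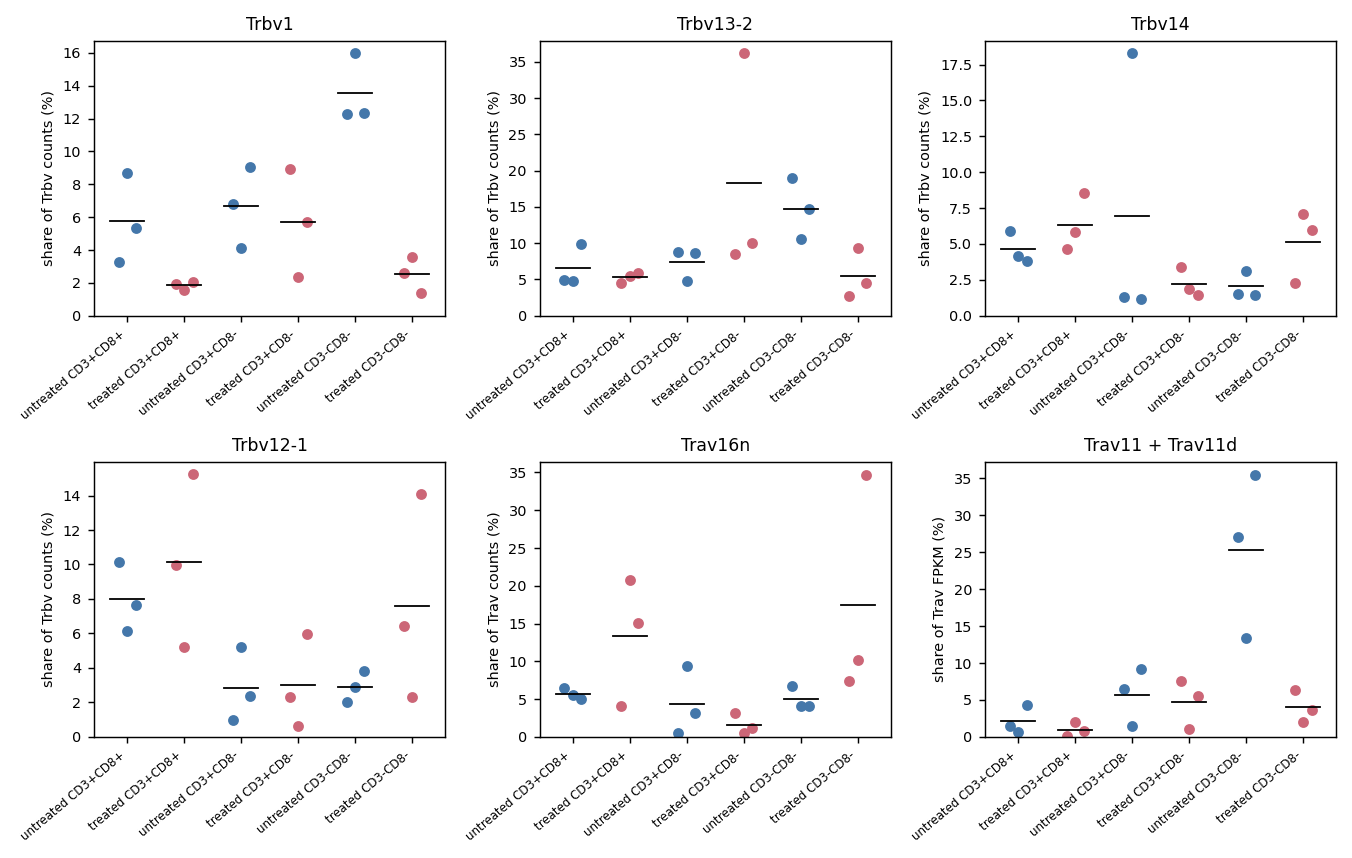
Share of Trbv or Trav counts, in percent, of 5 segments, and share of Trav FPKM of Trav11 and Trav11d together, in each library of the 6 groups (blue untreated, red treated, black line the group mean). Trbv1, Trbv13-2 and the Trav11 pair lie higher in untreated than in treated CD3-CD8- libraries without overlap, while Trbv14 and Trbv12-1 overlap there.

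The level of the segments, as opposed to their share, was higher in CD3-CD8- cells of treated mice. Summed Trbv counts were 173, 172 and 88.8 CPM without treatment (replicates 1, 5 and 18) and 851, 529 and 551 CPM with it (2, 11 and 19). Summed Trav counts were 34.3, 39.6 and 11.8 CPM untreated and 117, 87.6 and 127 CPM treated. Neither sum overlapped between the groups. Of 43 segments that passed the filter on low counts, out of 163, edgeR's quasi-likelihood test called 20 higher and 0 lower in treated libraries at an adjusted p below 0.05. Of all 13781 genes tested, 10.2% were called higher and 15.3% lower, 25.6% in all. The filter keeps segments that are high in 1 group only, which could then only differ upwards, so the counts describe the 43 and not all segments. The median log2 difference was 1.89 over the 43 and -0.06 over all genes tested.

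Called were 13 of 21 Trbv and 7 of 22 Trav segments. Trbv14 was 29.9 ± 9.43 CPM treated and 3.11 ± 2.08 CPM untreated (log2 difference 3.16 ± 0.47 SE, adjusted p = 0.00909). Trbv12-1 was 48.1 ± 33.1 against 3.95 ± 0.903 CPM (3.59 ± 0.61, adjusted p = 0.0108). Trbv12-2 and Trbv15 rose by 2.51 ± 0.43 and 2.24 ± 0.35 on the log2 scale. Trav6d-4 had the smallest adjusted p among the segments (0.00893, log2 difference 4.45 ± 0.62), from 1, 3 and 1 counts in the untreated and 26, 16 and 49 counts in the treated libraries, and its near copy Trav6-4 cannot be fully separated from it. Trbv1 did not pass the test: 16.2 ± 7.62 CPM treated and 19.9 ± 8.36 CPM untreated (log2 difference -0.33 ± 0.44, adjusted p = 0.61). Trbv13-2 was 32.5 ± 14.4 against 21.4 ± 10.3 CPM (0.55 ± 0.37, adjusted p = 0.30). The call count rested on certain libraries, as did that over all genes. It was 3 without untreated replicate 5, 9 without treated replicate 2, and 3 where all 18 libraries shared 1 fit, while the calls over all genes were 239, 910 and 76 in place of 3522. The median log2 difference of the segments tested in these fits was 2.63, 1.87 and 1.85.

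**Figure D5:**
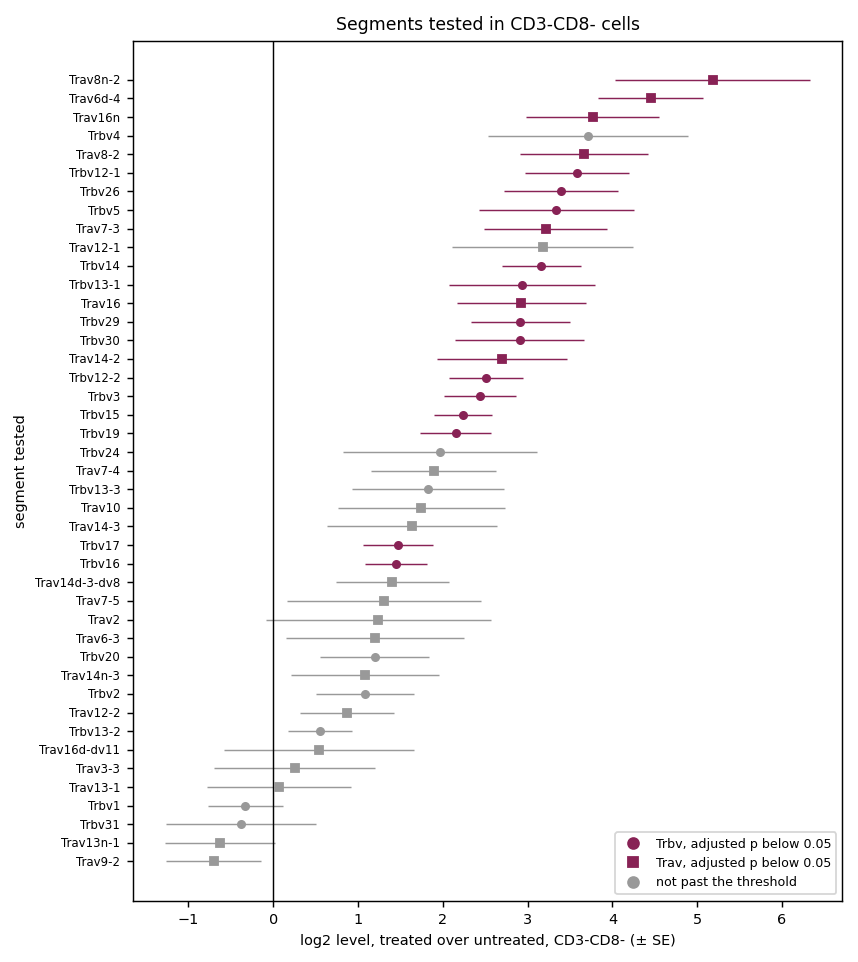
Log2 difference in level between treated and untreated CD3-CD8- libraries, with its standard error, for the 43 segments that passed the filter (circles Trbv, squares Trav; purple where called, grey where not). The 20 called segments are all higher in treated libraries, and Trbv1 lies near 0.

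Some receptor and CD3 genes moved with the segments in this fraction. Of 28 listed genes of the receptor complex, the gamma and delta loci and receptor assembly, 22 were tested. Of these 9 were called higher and 0 lower, against 10.2% and 15.3% of all 13781 genes tested. Trac, the alpha constant segment, rose by 1.30 ± 0.36 and Trbc1, the first beta constant segment, by 1.62 ± 0.35 on the log2 scale (adjusted p = 0.0350 and 0.0179). Cd3g rose by 2.32 ± 0.38, Cd3d by 1.52 ± 0.36 and Cd3e by 1.30 ± 0.35. The others were Trbc2, Tcrg-C2, Tcrg-V3 and Trgv2; the delta constant segment Trdc was 12.8 ± 8.38 CPM untreated and 7.23 ± 1.91 CPM treated (adjusted p = 0.21). Markers of other cells moved too. The summed level of 4 B cell markers was 1649 to 2142 CPM untreated and 991 to 1406 CPM treated, and that of 3 NK cell markers 394 to 669 and 184 to 425 CPM. The summed level of 4 neutrophil markers was 95.3 to 674 CPM untreated and 490 to 18595 CPM treated, the Kupffer cell sum 99.8 to 280 and 14.3 to 96.3 CPM, and the hepatocyte sum 227 to 2215 and 284 to 774 CPM, with no marker at 0 in all libraries. Cd8a was 61 to 288 and 549 to 985 CPM. The part of these cell types in the rise was not tested, and more T cells in a library cannot be told apart from more receptor RNA per cell.

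Scaled to the summed segment counts in place of all genes, which asks about usage, 12 of the 43 segments were called in CD3-CD8- cells, 6 higher and 6 lower. On this scale 0.152% of all genes were higher and 93.4% lower (93.6% in all). That share follows from the scale, because the summed segment counts were higher in treated libraries. The number of lower calls therefore cannot be judged against it. Higher were Trav6d-4, Trav8n-2, Trav16n, Trbv14, Trbv12-1 and Trbv26, by 1.31 to 2.65 on the log2 scale. With so many genes called, the adjustment changed their p-values little. For Trbv26 p in edgeR's quasi-likelihood test was 0.0422 before and 0.0453 after it, and for Trbv14 0.0240 and 0.0266. The 12 calls, 6 higher and 6 lower, therefore amount to an unadjusted p below 0.05 among 43 segments. Lower were Trbv1 (-2.42 ± 0.46), Trbv13-2 (-1.42 ± 0.48), Trbv31, Trav9-2, Trav13n-1 and Trav13-1. Trbv1 had the smallest unadjusted p of the 43 in edgeR's quasi-likelihood test (8.97e-05), and Trbv13-2 had 0.00948.

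In CD3+CD8+ and CD3+CD8- cells no segment was called between treated and untreated libraries, and edgeR called no gene at all (0% of 10654 and 0% of 11197 tested). In CD3+CD8+ cells 39 segments were tested, 8 had an unadjusted p under 0.05, all higher in treated libraries, as against 624 of 10654 genes in either direction. DESeq2 called 1 of 62 segments and 223 of 13266 genes. Trbv14 was 47.3 ± 6.01 CPM treated and 18.3 ± 7.82 CPM untreated (log2 difference 1.24 ± 0.35, adjusted p = 0.48). Trav12-2 (11.8 ± 1.83 against 2.99 ± 1.43 CPM) and Trav16n (24.0 ± 15.6 against 4.91 ± 2.65 CPM) were next. In CD3+CD8- cells 23 segments were tested, 3 had an unadjusted p under 0.05, all higher, as against 198 of 11197 genes, and DESeq2 called 0. These were Trav9-1, Trbv13-2 and Trav14n-3, each with an adjusted p of 0.9998.

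Between CD3+CD8+ and CD3+CD8- cells of treated mice, 4 of 56 segments tested were called higher and 0 lower, against 0.516% of all genes higher and 5.44% lower (5.96% either way). All 4 were Trav segments: Trav16n (24.0 ± 15.6 against 1.78 ± 1.15 CPM, log2 difference 3.91 ± 0.96, adjusted p = 0.0204), Trav16 (3.35 ± 0.82), Trav16d-dv11 (4.78 ± 1.35) and Trav8n-2 (4.37 ± 1.18). The first 3 are the near copies shown above and may share reads, so they are not independent. None of the 4 was called without replicate 11 of either fraction or without CD3+CD8- replicate 19, and 2 remained without CD3+CD8- replicate 2. Scaled to the summed segment counts, 0 were called, against 6.31% of all genes. Trav6d-4 and Trav6-2 had log2 differences of -3.52 ± 1.32 and -3.67 ± 1.51, which did not pass the test (adjusted p = 0.17 and 0.23), each carried by 1 CD3+CD8- library. In untreated mice 0 of 56 were called, against 1.58% of all genes (0.182% higher and 1.4% lower). There 1 segment, Trav6-7-dv9, had an unadjusted p under 0.05 (log2 difference 2.22 ± 0.84, adjusted p = 0.27), followed by Trav9-2 and Trbv12-1 (adjusted p = 0.53 and 0.55), and DESeq2 called 0. With replicate number as a block 1 was called in untreated and 9 in treated mice, and calls over all 13181 genes went from 208 to 435 and from 785 to 1112.

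Trav counts were also summed over families, whose leader was in several libraries not the family of the leading segment, such as Trav13 in untreated CD3-CD8- replicate 5, where Trav12-2 led. The Trav6 family held 70.3% and 44.7% of Trav counts in treated CD3+CD8- replicates 11 and 19. The Trav16 family held 35.5% and 25.2% in treated CD3+CD8+ replicates 11 and 19, and 43.8% in treated CD3-CD8- replicate 19. It held 0.579% in treated CD3+CD8- replicate 11, the lowest value of the series. The Trav8 family led replicate 2 of treated CD3+CD8+ (35.2%) and CD3-CD8- (31.0%) cells. Segments of the n block, 34 copies on chromosome 14, made up 34.0% of Trav counts on average in treated CD3+CD8+ and 36.7% in treated CD3-CD8- libraries, and 13.9% to 18.5% in the means of the other 4 groups. These shares depend on how reads were divided among copies.

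Variable counts can be set against the constant segments, which every joined beta chain also carries. Per 100 counts of Trbc1 and Trbc2 there were 32.8, 34.5 and 36.1 Trbv counts in the untreated CD3-CD8- libraries (replicates 1, 5 and 18), against 58.7, 54.2 and 57.3 in the treated ones (2, 11 and 19). CD3+CD8+ libraries gave 55.4 to 67.5 untreated and 49.0 to 95.8 treated, and CD3+CD8- libraries 45.7 to 77.5 and 48.6 to 72.2. The untreated CD3-CD8- libraries thus held the 3 lowest ratios of the 18. The part of the other cell types, whose marker sums are given above, in this ratio was not tested.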

How the data were processed

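The 18 libraries were RNA-seq of sorted cells. The authors deposited a table of read counts per gene and a table of FPKM values per transcript, and the submitters' processing notes name HTSeq 0.13.5, DESeq2 3.20, Trim Galore 0.6.7 and Cufflinks 2.2.1, without their roles. Not given in the sources used here are the aligner, the build and the treatment of reads that match several copies. Segment names came from the FPKM table. Of the library columns with counts, 22 were not used. Samples were grouped by the labels.

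Shares, exact permutation tests and Clopper-Pearson intervals (95%) were computed with Python 3.11.15 and scipy 1.17.1. A limit for a segment without counts is 3 counts of the chain total, and 200 counts of a chain was the minimum used in one alternative. Levels were tested on counts over all genes with edgeR 4.0.16 (quasi-likelihood F-test, filterByExpr, TMM scaling, Benjamini-Hochberg adjustment, threshold 0.05) in R 4.3.3. Each treatment comparison used its own 6 libraries, and the fraction comparisons all 18. The script was tested on simulated data. CPM levels are from 1 TMM scaling of all 18 libraries.

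Named are the 5 segments of highest mean share per chain, each library's leader, the segments of invariant T cells and Trbv19, the 5 called segments of smallest adjusted p per comparison (3 by unadjusted p where none was called), the 3 of widest spread per chain, and receptor genes that passed. Trav6-4 and other near copies were named after their values were seen. Members and lists were chosen with earlier results of these data known. Alternatives were other size factors, no filter, DESeq2 1.42.0, scaling to segment counts, left-out libraries, FPKM, merged copies, Shannon entropy and a replicate block.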

Additional observations from a re-analysis of the deposited data

Results flagged for a closer look

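Trav9-1 had opposite differences in 2 fractions. Its share of Trav counts in CD3+CD8- cells was 4.71%, 2.67% and 2.68% in treated replicates 2, 11 and 19 and 2.09%, 0.990% and 0% in untreated replicates 5, 6 and 18, a difference of 2.32 percentage points. In CD3-CD8- cells it was 0.445%, 0.227% and 0.671% treated and 0.994%, 1.04% and 0.680% untreated, a difference of -0.456 points. The groups did not overlap in either fraction, but in CD3-CD8- cells the nearest values were 0.671% and 0.680%, and the latter is 1 of 147 counts. Of 128 Trav segments, 1 was higher and 14 lower in treated libraries without overlap in CD3+CD8- cells, and 4 higher and 11 lower in CD3-CD8- cells. The difference between the fractions was not tested.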

How the results depend on the processing

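Called segments are given first. Without the filter on low counts they numbered 5 of 128 in CD3+CD8+, 6 of 131 in CD3+CD8- and 46 of 127 in CD3-CD8- cells for treatment. Over all genes, 380 of 35013, 195 of 29142 and 3381 of 34114 were called in these fits. Between CD3+ fractions 1 (untreated) and 24 (treated) of 139 were called, against 775 and 1294 of 39771 genes. DESeq2 called 1 of 62 in CD3+CD8+ cells (223 of 13266 genes) and 12 of 71 between treated fractions (1114 of 15076 genes). Scaling to segment counts gave 12 in CD3-CD8- cells (12894 of 13781 genes) and 0 between treated fractions (832 of 13181). A single fit of all 18 libraries gave 3 in CD3-CD8- cells (76 of 13181 genes). Without the ribosome-rich libraries and untreated CD3+CD8- 6, 1 of 92 was called between untreated fractions (688 of 15774 genes). With only the 6 libraries compared, 7 of 48 were called between treated fractions (652 of 12068 genes). Leaving out 1 library gave 3 to 20 in CD3-CD8- cells, 0 to 1 between untreated and 0 to 6 between treated fractions. Calls over all genes in these fits ran from 239 to 3183, from 0 to 374 and from 405 to 700. The log2 difference of Trav9-2 between untreated fractions ran from -6.51 (without untreated CD3+CD8+ 5) to 1.98 with 1 library left out. The replicate block gave 1 between untreated and 9 between treated fractions, against 435 and 1112 of 13181 genes. The labels tie no number to an animal. Between CD3+ fractions the deviations of same-numbered libraries correlated at -0.0414 for number 5 and -0.00479 for number 2. For numbers 18, 11 and 19 they correlated at 0.381, 0.495 and 0.425. Same-numbered pairs with a CD3-CD8- library gave 0.151 to 0.556. What the libraries of a block share was not tested. With the block, the difference in top Trbv share between fractions was -8.51 (5 pairs, exact permutation p = 0.3125).

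Usage differences that changed sign were the Trav11 pair in CD3+CD8- cells by FPKM (-0.965), the Trbv top share (-4.86) and effective number (0.3003) in CD3-CD8- cells with copies merged, and the Trav effective number between fractions by FPKM (-7.27), with copies merged (-1.23) and by Shannon entropy (-4.55). The Trav11 pair between fractions passed an unadjusted 0.05 by FPKM (-3.68, exact permutation p = 0.045). Leaving out 1 library moved the Trav11 pair from -0.0296 to 0.0244 in CD3+CD8+ and from -0.314 to 1.29 in CD3+CD8- cells. It moved the Trbv top share from -5.52 to 7.79 in CD3+CD8- and from -2.08 to 4.10 in CD3-CD8- cells, and the Trbv effective number from -3.31 to 2.07 and from -2.47 to 0.133. Between fractions the ranges were -11.8 to -5.05 (Trbv top share), 1.40 to 4.09 (Trbv effective number), -0.120 to 15.1 (Trav effective number) and -1.13 to -0.326 (Trav11 pair). The causes were not tested. Trav usage of the libraries under 200 counts is limited by depth.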
